A study of Mus musculus with 4 samples.

Results

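Lysyl oxidases and the enzymes that prepare collagen for them were examined in bone marrow-derived macrophages of Hem1 KO and WT mice. The group comprised 10 genes named by symbol, of which 9 had a probe set annotated to that symbol alone, among 19505 genes measured by the same rule. These were the prolyl hydroxylase subunit P4ha2, the lysyl hydroxylases Plod1 and Plod2, the collagen chaperone Serpinh1, the proteinase enhancer Pcolce and the lysyl oxidases Lox, Loxl1, Loxl3 and Loxl4. Loxl2 is not analysed here. Each of the 9 had 1 probe set, so that no choice between probe sets was needed.

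The cultures compared were labelled Hem1 KO and WT. Hem1, encoded by Nckap1l, is the subunit of the actin-regulating WAVE complex found in blood cells. Each genotype was represented by 2 arrays, 1 per mouse, from femoral marrow. It was cultured over 8 days in RPMI that held 10% fetal calf serum and 20% L929 conditioned medium, which supplies the growth factor CSF1, and received no further treatment. The labels used here name no allele, strain, age or sex. Of 11 measured macrophage markers, 11 lay above background on all arrays and 0 were called different by limma, while 1 had an unadjusted p below 0.05. That 1 was the Fc receptor Fcgr1 (log2 difference -0.74, SE 0.34, adjusted p = 0.912 by limma), followed by the surface receptor Adgre1 (-0.44, SE 0.31, adjusted p = 1 by limma). Fcgr1 was called lower when the prior variance followed intensity (adjusted p = 0.000749 by limma). Of the 11, 10 had a difference below 0, with a list median of -0.21. For 6 both Hem1 KO arrays lay below both WT arrays, which held for 13.3% of all genes. Limma called 1.48% of all genes higher and 0.133% lower, so most lists of 11 genes would hold 0 calls.

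Fibrillar collagens are built in the endoplasmic reticulum (ER), where prolyl and lysyl residues of the chains are hydroxylated and the triple helix is held by a dedicated chaperone. After secretion, proteinases trim the propeptides, and lysyl oxidases, which are copper enzymes, oxidise lysyl and hydroxylysyl side chains so that neighbouring molecules become covalently cross-linked. Fibroblasts and osteoblasts are the classical sources of this machinery. Macrophages are better known for taking up and degrading collagen than for making it.

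Values are the deposited log2 values. Differences are Hem1 KO minus WT on that scale with limma's standard error (SE), n is 2 arrays per genotype throughout, and calls were made at a Benjamini-Hochberg adjusted p below 0.05 across the 19505 genes. Of the 9 genes, 5 were called higher in Hem1 KO macrophages and 0 lower. Over all genes, 1.48% were called higher and 0.133% lower. Before adjustment, p was below 0.05 with a higher Hem1 KO level for 7 of the 9, against 3.63% of all genes. The median difference of the 9 was 2.08, against 0.01 over all genes. For 7 of the 9 both Hem1 KO arrays lay above both WT arrays, which held for 12.5% of all genes. All 9 lay above background on every array, where background is the 95th percentile of 1438 chemosensory receptor genes (olfactory, taste and vomeronasal), between 5.38 and 6.04 on the 4 arrays. Against a higher level, the 95th percentile of the array's negative controls, the 5 called genes and P4ha2 lay below background on both WT arrays, so that their ratios given below would be bounds of at least 4.47-fold for Plod2, 3.63-fold for Lox, 3.22-fold for Pcolce, 1.81-fold for Loxl1, 1.27-fold for Serpinh1 and 1.25-fold for P4ha2.

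**Figure D1:**
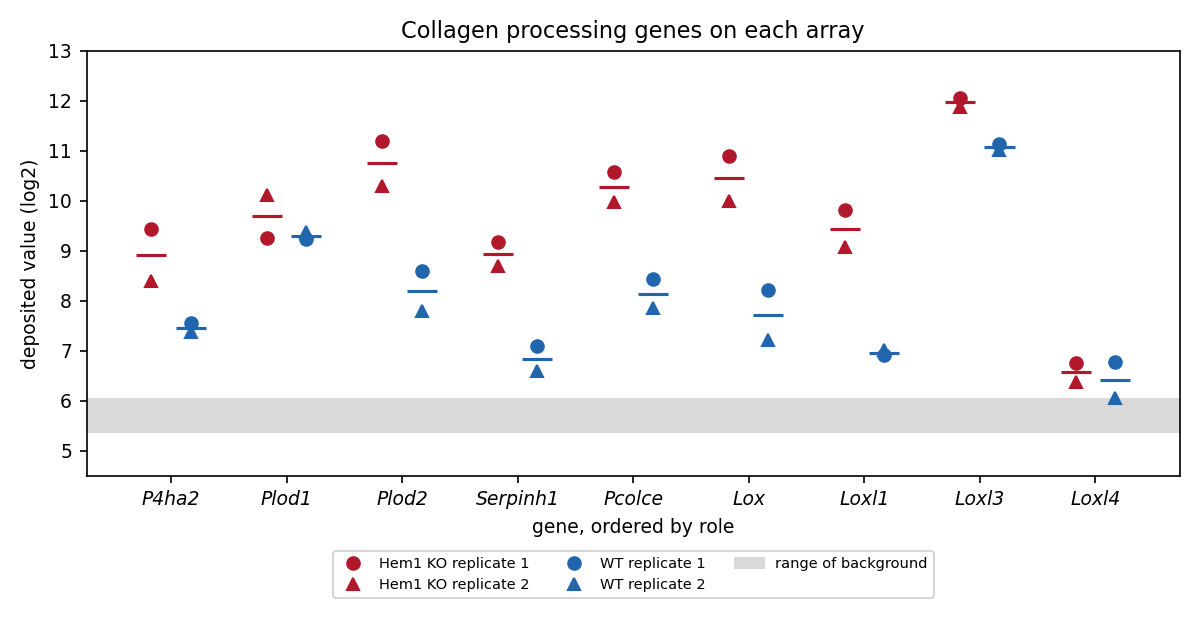
Deposited log2 values of the 9 genes on each array, with Hem1 KO left of WT, circles for replicate 1, triangles for replicate 2, bars for group means and a grey band for the range of background over the arrays. Hem1 KO and WT values stand apart for 7 genes and overlap for Plod1 and Loxl4, and levels are not comparable between genes.

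Markers of stromal cells were higher in the same cultures. Of 11 measured stromal markers, 7 were called higher and 0 lower, against 1.48% and 0.133% of all genes, with a median difference of 1.75. Col1a1, Col1a2 and Col3a1 are among them and are counted again below as fibrillar collagen chains. The summed linear signal of the 11 markers, written as log2, was 13.63 and 13.21 on the Hem1 KO arrays and 11.82 and 11.34 on the WT arrays. The markers Thy1, Lum and Lepr lay at or below background on all 4 arrays. The largest called differences were those of the growth factor receptor Pdgfrb (2.36), the chemokine Cxcl12 (2.06), the collagen chains Col1a1 (1.97) and Col1a2 (1.94), and the contractile proteins Acta2 (1.75) and Tagln (1.66). Without WT replicate 2, 4 of the 7 calls ended, those of Acta2 (adjusted p = 0.165 by limma), Tagln (0.337), Col1a2 (0.108) and Col3a1 (0.674). With dim genes dropped, those of Tagln (0.0974), Col1a2 (0.0853) and Col3a1 (0.0978) ended. The part that these markers have in the results on collagen enzymes was not tested, and in bulk RNA a change in the number of cells of a type cannot be told apart from a change in RNA per cell.

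Nckap1l read 10.04 and 9.62 on the Hem1 KO arrays and 11.37 and 11.11 on the WT arrays. It was lower in Hem1 KO macrophages (-1.41, SE 0.32, adjusted p = 0.0467 by limma) but above background on both of their arrays, and the labels do not say which part of the gene was deleted. The adjusted p was 0.0874, 0.381 and 0.128 when Hem1 KO replicate 2, WT replicate 1 or WT replicate 2 was left out, and 0.0865 with dim genes (above background on fewer than 2 arrays) dropped.

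Of the 2 lysyl hydroxylases, Plod2 was called and Plod1 was not. Plod2 encodes the enzyme that hydroxylates lysines in the telopeptides at the ends of collagen chains, which sets the kind of cross-link formed later. It read 11.20 and 10.29 on the Hem1 KO arrays and 8.60 and 7.79 on the WT arrays. The lower Hem1 KO array exceeded the higher WT array by 1.69, and the gene was called higher (2.55, SE 0.39, adjusted p = 0.00333 by limma), a ratio of 5.87.

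Plod1 encodes the hydroxylase that acts mainly on lysines within the helix. It read 9.26 and 10.11 on the Hem1 KO arrays and 9.23 and 9.37 on the WT arrays, so that the genotypes overlapped. The difference was 0.39 (SE 0.35, adjusted p = 1 by limma), with a 95% interval of -0.37 to 1.14. Without Hem1 KO replicate 2 it was -0.038, so the sign rested on that array.

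The ratio of Plod2 to Plod1 within an array is untouched by a shift of the whole array. On the log2 scale it stood at 1.94 and 0.18 on the Hem1 KO arrays and at -0.64 and -1.57 on the WT arrays. Plod1 itself differed by 0.39, so the ratio largely restates the difference of Plod2. It was thus higher by 2.17 in Hem1 KO macrophages, with no overlap. An exact two-sided permutation test gave p = 0.333, the smallest value that 2 arrays against 2 can give. It was 1 of 9 such pairs, chosen after the values were seen, with a Benjamini-Hochberg adjusted p = 0.375 over the 9 by the same exact test.

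P4ha2 encodes an alpha subunit of prolyl 4-hydroxylase, the enzyme whose product gives the collagen helix its thermal stability. It read 9.43 and 8.39 on the Hem1 KO arrays and 7.55 and 7.38 on the WT arrays. Both Hem1 KO arrays were above both WT arrays, by a gap of 0.84, but the Hem1 KO arrays lay 1.04 apart. The difference of 1.44 (SE 0.37, 95% interval 0.64 to 2.24) missed the threshold (adjusted p = 0.0945 by limma). It passed when the arrays were centred on their medians (1.34, adjusted p = 0.0188 by limma) and when the prior variance followed intensity (adjusted p = 0.000951 by limma). It did not pass with quantile normalization (adjusted p = 0.103 by limma) or with dim genes dropped (adjusted p = 0.213 by limma). The difference moved between 0.92 without Hem1 KO replicate 1 and 1.96 without Hem1 KO replicate 2.

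Serpinh1 encodes HSP47, an ER chaperone that binds folded procollagen. It read 9.17 and 8.69 on the Hem1 KO arrays and 7.09 and 6.60 on the WT arrays. The replicates of each genotype lay within 0.49 of each other, and the genotypes were 1.59 apart at their closest. The gene was called higher (2.08, SE 0.34, adjusted p = 0.00474 by limma), a ratio of 4.24.

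Among general ER chaperones, limma called 0 of 9, and 0 had an unadjusted p below 0.05, with a median difference of 0.05. Since 1.48% of all genes were called higher and 0.133% lower, most sets of 9 genes would hold 0 calls. The members with the smallest p were the co-chaperone Dnajb9 (-0.52, SE 0.37, adjusted p = 1 by limma) and the disulphide isomerase Pdia6 (0.27, SE 0.32, adjusted p = 1 by limma). Relative to Hspa5, the main ER chaperone of the Hsp70 family, Serpinh1 stood at a log2 ratio of -1.98 and -2.39 on the Hem1 KO arrays and -4.42 and -4.13 on the WT arrays. That ratio was higher by 2.09 in Hem1 KO macrophages, again without overlap (exact permutation p = 0.333, adjusted p = 0.375 over the 9 pairs). Hspa5 itself differed by -0.0041, so the ratio largely restates the difference of Serpinh1.

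Pcolce encodes a secreted glycoprotein that speeds the removal of the C-propeptide by the proteinase Bmp1. It read 10.57 and 9.98 on the Hem1 KO arrays and 8.44 and 7.85 on the WT arrays. The genotypes were 1.53 apart at their closest. The gene was called higher (2.13, SE 0.35, adjusted p = 0.00526 by limma), a ratio of 4.37.

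Of the 4 lysyl oxidases measured, Lox and Loxl1 were called higher, and Loxl3 and Loxl4 were not called. Lox, which cross-links both collagen and elastin, read 10.90 and 10.00 on the Hem1 KO arrays and 8.21 and 7.21 on the WT arrays. Replicates lay 0.896 apart in Hem1 KO and 0.998 in WT macrophages, and the genotypes were 1.79 apart at their closest. With a difference of 2.74 (SE 0.40, adjusted p = 0.00281 by limma), a ratio of 6.67, Lox had the largest difference of the 9 genes and ranked 36 of 19505 by difference.

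Loxl1, which in mice is needed for the upkeep of elastic fibres, read 9.81 and 9.08 on the Hem1 KO arrays and 6.91 and 7.02 on the WT arrays. The WT arrays were close together, and the gap of 2.07 to the lower Hem1 KO array was the widest of the 9 genes. Loxl1 was called higher (2.48, SE 0.34, adjusted p = 0.00218 by limma), a ratio of 5.59.

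Loxl3, a member of the subgroup with scavenger receptor cysteine-rich domains, read 12.05 and 11.88 on the Hem1 KO arrays and 11.13 and 11.02 on the WT arrays. The genotypes did not overlap, and the replicates lay within 0.17 of each other. The difference of 0.89 (SE 0.31, 95% interval 0.22 to 1.57) was not called (adjusted p = 0.414 by limma). It passed with quantile normalization (1.02, adjusted p = 0.0458 by limma) and when the prior variance followed intensity (adjusted p = 3.54e-06 by limma).

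Loxl4, of the same subgroup, read 6.76 and 6.37 on the Hem1 KO arrays and 6.77 and 6.05 on the WT arrays. The genotypes overlapped, and the lowest value lay 0.54 above background. The difference was 0.16 (SE 0.35, adjusted p = 1 by limma), with a 95% interval of -0.59 to 0.91. On both arrays of each genotype Loxl4 lay below the 95th percentile of the negative controls. A signal this near background may not show a change in RNA, so the interval does not bound one.

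Within arrays, the log2 ratio of Loxl1 to Loxl4 was 3.04 and 2.71 on the Hem1 KO arrays and 0.14 and 0.97 on the WT arrays, a difference of 2.32. That of Loxl1 to Loxl3 differed by 1.59. Neither ratio overlapped between the genotypes (exact permutation p = 0.333 for each, adjusted p = 0.375 over the 9 pairs). Loxl4 itself differed by 0.16, so the ratio to it largely restates the difference of Loxl1.

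**Figure D2:**
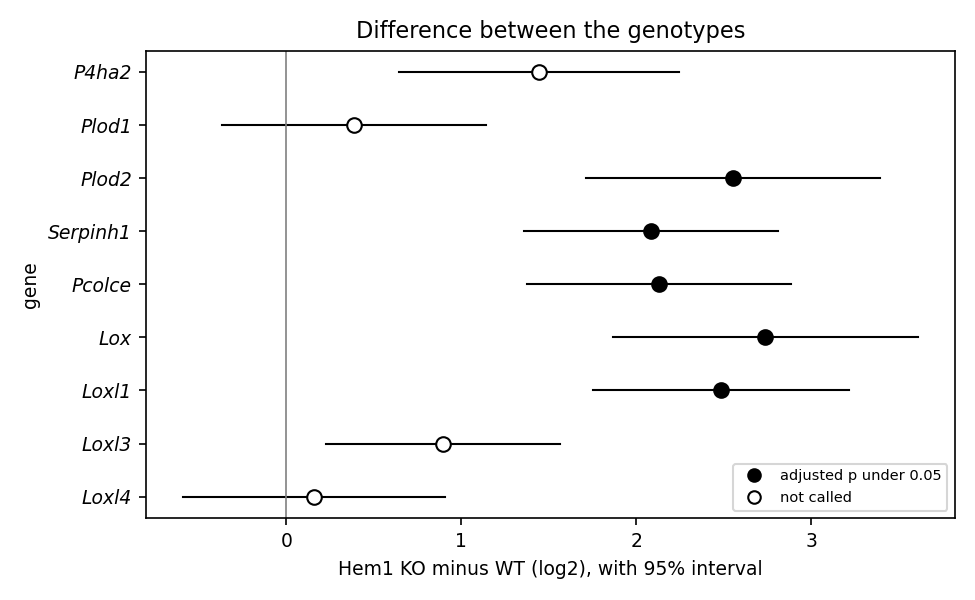
Difference between the genotypes (Hem1 KO minus WT, log2) for the 9 genes, with limma's 95% interval; filled points are called. The called genes lie between 2.08 and 2.74, while the intervals of Plod1 and Loxl4 include 0.

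The replicates carried an offset of their own. Replicate 1 read above replicate 2 for 8 of the 9 genes in Hem1 KO and for 7 of 9 in WT macrophages. The array medians over all genes lay the same way, at 6.95 and 6.49 for Hem1 KO replicates 1 and 2 and at 6.82 and 6.42 for WT replicates 1 and 2. With each array centred on its median, Serpinh1 stood at 2.22 and 2.20 on the Hem1 KO arrays and 0.27 and 0.18 on the WT arrays, so that its replicates drew close together. Lox kept a spread after centring, at 3.95 and 3.52 in Hem1 KO and 1.39 and 0.80 in WT macrophages. Plod1 went the other way, at 2.31 and 3.62 in Hem1 KO and 2.42 and 2.95 in WT macrophages.

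Leaving out any single array kept the 5 calls. The lowest difference was then 2.24 for Lox, 2.12 for Loxl1, 2.10 for Plod2, 1.84 for Serpinh1 and 1.83 for Pcolce. In fits with 1 array in a genotype limma gave every gene the same SE, 0.40 without a Hem1 KO array and 0.50 without a WT array, so these calls rest on the size of the difference alone.

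**Figure D3:**
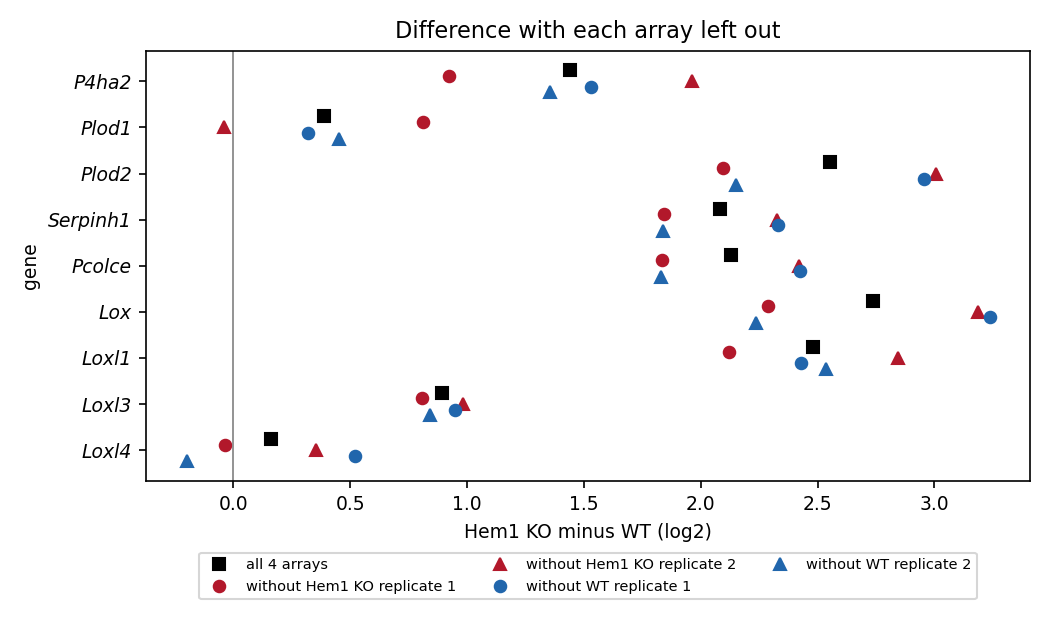
Difference between the genotypes (Hem1 KO minus WT, log2) for the 9 genes with all 4 arrays and with each array left out in turn. The 5 called genes stay above 1.8 in every fit, while Plod1 and Loxl4 fall on both sides of 0.

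Some other genes of the pathway were also called higher. Of 13 measured genes that modify or fold collagen in the ER, beside the 9, 3 were called higher and 0 lower. Their median was 0.59, and the shares called over all genes were 1.48% higher and 0.133% lower. P3h4, a factor of lysyl hydroxylase complexes, read 9.78 and 9.13 on the Hem1 KO arrays and 7.27 and 6.98 on the WT arrays (2.33, SE 0.34, adjusted p = 0.00259 by limma). P4ha3, another prolyl hydroxylase alpha subunit, read 8.97 and 8.35 on the Hem1 KO arrays and 6.63 and 6.24 on the WT arrays (2.22, SE 0.34, adjusted p = 0.00333 by limma). The prolyl isomerase gene Fkbp14 was also called (1.73, SE 0.35, adjusted p = 0.0236 by limma), but not without Hem1 KO replicate 1 (1.33, adjusted p = 0.0531 by limma), without WT replicate 2 (1.52, adjusted p = 0.147 by limma) or with dim genes dropped (adjusted p = 0.0865 by limma).

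P4ha1, the prolyl hydroxylase subunit found in most tissues, was chosen for comparison after its values were seen. It read 9.55 and 8.81 on the Hem1 KO arrays and 8.81 and 8.60 on the WT arrays (0.48, SE 0.34, adjusted p = 1 by limma). The within-array ratio of P4ha2 to P4ha1 was higher by 0.96 in Hem1 KO macrophages, without overlap (exact permutation p = 0.333, adjusted p = 0.375 over the 9 pairs).

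Of 8 measured genes for the trimming of propeptides, 2 were called higher and 0 lower (median 0.33), against 1.48% and 0.133% of all genes. At or below background on all arrays were 4 of the 8. Pcolce2, the relative of Pcolce, read 7.88 and 8.28 on the Hem1 KO arrays and 6.26 and 6.10 on the WT arrays (1.90, SE 0.32, adjusted p = 0.0062 by limma). Bmp1, whose product trims procollagen and also activates pro-lysyl oxidase, read 10.28 and 9.58 on the Hem1 KO arrays and 8.28 and 8.46 on the WT arrays (1.56, SE 0.34, adjusted p = 0.0349 by limma). The call of Bmp1 ended without Hem1 KO replicate 1 (adjusted p = 0.124 by limma), without WT replicate 1 (0.151) or 2 (0.0733), with quantile normalization (0.052) and with dim genes dropped (0.0907). The ratio of Pcolce to Bmp1 was higher by 0.57, with a gap of 0.12 between the genotypes (exact permutation p = 0.333, adjusted p = 0.375 over the 9 pairs).

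Of the substrates, several collagen chains were called higher. Of 11 fibrillar collagen chains, 4 were called higher and 0 lower, against 1.48% and 0.133% of all genes. All 11 differences were above 0 (median 1.22), while the median over all genes was 0.01. Col5a1, a chain of the minor fibrillar collagen V, had the largest (2.71, SE 0.32, adjusted p = 0.000923 by limma), ahead of Col1a1, Col1a2 and Col3a1 (1.57, SE 0.35). The calls of Col1a2 and Col3a1 are those that ended above without WT replicate 2 or with dim genes dropped.

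Members were also set against collagen I within arrays. Relative to Col1a1, the log2 ratio of Lox was higher by 0.77 in Hem1 KO macrophages and that of Plod2 by 0.58, without overlap (exact permutation p = 0.333 each). The ratio of Serpinh1 to Col1a1 differed by 0.11 and overlapped, at -2.09 and -1.85 on the Hem1 KO arrays and -1.95 and -2.22 on the WT arrays (exact permutation p = 0.667). Adjusted over the 9 pairs these were p = 0.375, 0.375 and 0.667 by the exact test.

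Among 8 elastic fibre genes, 1 was called higher and 0 lower (median 0.50), against 1.48% and 0.133% of all genes. It was Fbln5, whose product tethers Loxl1 to elastic fibres, at 10.02 and 9.20 on the Hem1 KO arrays and 7.38 and 6.60 on the WT arrays (2.62, SE 0.38, adjusted p = 0.00259 by limma). The elastin gene Eln differed by 0.24 (SE 0.36), and its genotypes overlapped. Fbn2 and Mfap4 lay at or below background on all arrays. Of the 8, 4 had an unadjusted p below 0.05 by limma with a higher Hem1 KO level, against 3.63% of all genes.

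Lists for the supply side of the pathway held no calls with all 4 arrays and genotype as the only term. At the shares called over all genes, 1.48% higher and 0.133% lower, most lists of their length would hold none. Of 8 carriers of procollagen export limma called 0, while 1 had an unadjusted p below 0.05 (median -0.01). Their smallest p belonged to the COPII coat gene Sec23a (0.91, SE 0.32), which was called with the replicate number as a block (adjusted p = 0.0263 by limma), and to the export receptor partner Mia2 (-0.41, SE 0.31). Of 7 genes for the transport of vitamin C, iron and copper limma called 0, and 0 had an unadjusted p below 0.05 (median -0.23). They were led by the vitamin C transporter Slc23a2 (-0.62, SE 0.31), which was called lower with the intensity trend (adjusted p = 0.0049 by limma), and the transferrin receptor Tfrc (-0.43, SE 0.32).

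P4ha2, Plod1, Plod2 and Lox are textbook targets of hypoxia-inducible factors. Of 12 other hypoxia response genes, 1 was called higher and 0 lower (median 0.13), against 1.48% and 0.133% of all genes. It was Adm, a vasodilator peptide gene (3.85, SE 0.53, adjusted p = 0.00218 by limma), above background on 1 of 2 WT arrays. Its difference ran from 2.94 without WT replicate 2 to 4.77 without WT replicate 1, and was 3.25 and 4.46 without Hem1 KO replicates 1 and 2.

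**Figure D4:**
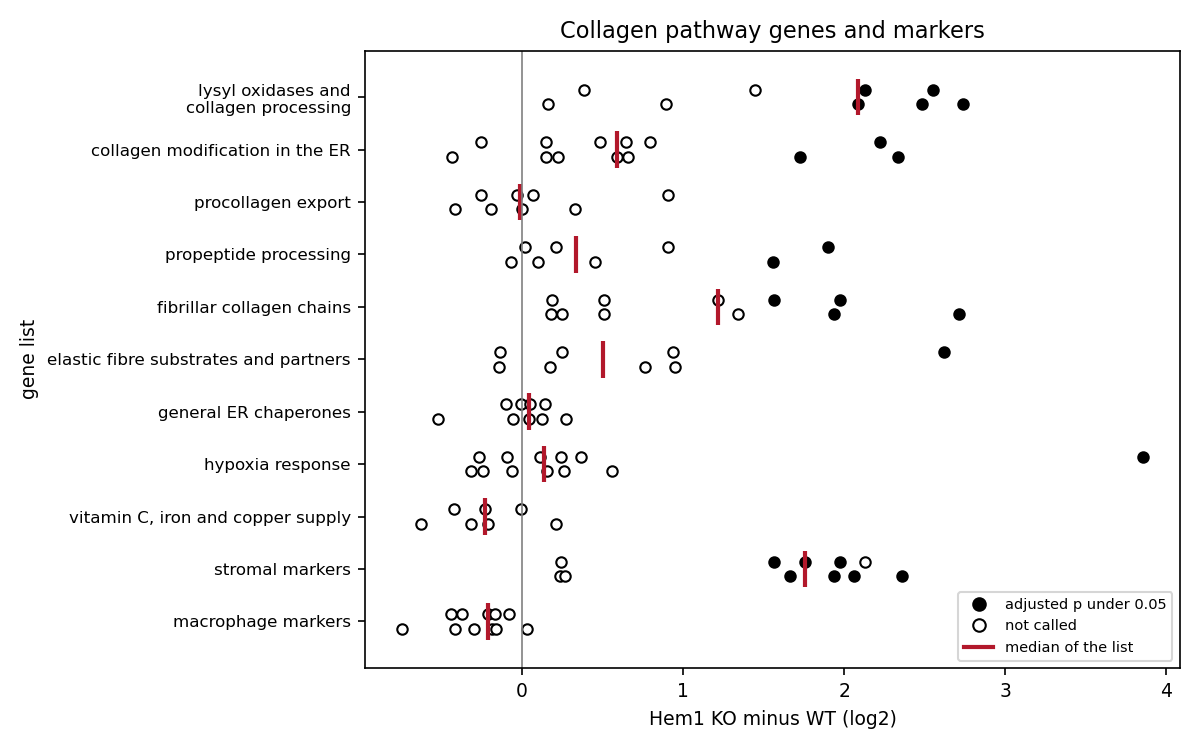
Differences (Hem1 KO minus WT, log2) of single genes in the collagen pathway lists, the hypoxia, chaperone and cofactor lists, and the stromal and macrophage markers; filled points are called and the red line is each list's median. The 9 lysyl oxidase and collagen processing genes have a median of 2.08, the stromal markers 1.75, the fibrillar collagen chains 1.22 and the macrophage markers -0.21. The stromal and fibrillar collagen lists share Col1a1, Col1a2 and Col3a1.

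Markers of other cell types were counted in the same way, beside 1.48% of all genes called higher and 0.133% lower. Among 5 osteoblast markers, bone sialoprotein Ibsp was called higher, at least 8.65-fold since neither WT array exceeded background (adjusted p = 0.00102 by limma). The list median was 0.68. Of the 5, 2 had an unadjusted p below 0.05 with a higher Hem1 KO level, against 3.63% of all genes. For 3, both Hem1 KO arrays lay above both WT arrays, against 12.5% of all genes. Bglap, above background on all arrays, overlapped between the genotypes (-0.03, SE 0.36), and Dmp1 lay at or below background on all arrays. Sp7 was at least 1.34-fold higher, with neither WT array above background, but was not called (adjusted p = 0.169 by limma). Ibsp read 9.63 and 7.97 on the Hem1 KO arrays. The bound was 4.88-fold without Hem1 KO replicate 1 and 15.4-fold without Hem1 KO replicate 2. The 95th percentile of the negative controls was 8.75 and 8.04 on these arrays, so at that level Ibsp lay below background on Hem1 KO replicate 2 too. Sp7, at 6.55 and 5.67 on the Hem1 KO arrays, lay below that level on both, so that no bound holds for it there. Among 6 endothelial markers, Cdh5 was higher, by at least 1.86-fold (above background on 0 of 2 WT arrays, adjusted p = 0.00622 by limma), and Vwf was lower (-1.52, SE 0.31, adjusted p = 0.0227 by limma), with a median of 0.07. Cdh5 read 6.25 and 6.93 on the Hem1 KO arrays, below the negative-control level on both, so that no bound holds at that level. Vwf, at 5.83 and 5.63 on the Hem1 KO arrays and 7.25 and 7.25 on the WT arrays, lay below it on all 4. The call of Cdh5 ended with quantile normalization (adjusted p = 0.0738 by limma) and that of Vwf without WT replicate 1 (0.113) or 2 (0.142).

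Limma called 0 of 4 megakaryocyte markers (median 0.06), 0 of 7 neutrophil markers (median -0.01) and 0 of 5 lymphocyte markers (median -0.01), and 0 of each had an unadjusted p below 0.05. At the shares called over all genes, 1.48% higher and 0.133% lower, most lists this short would hold 0 calls. At or below background on all arrays were 4 of the 7 neutrophil and 3 of the 5 lymphocyte markers. Megakaryocytes are a known source of Lox in mouse marrow. Their markers Itga2b (0.20, SE 0.43) and Gp9 (0.10, SE 0.36) changed sign with single arrays left out. The neutrophil markers with the smallest p were Camp, above background on 2 of 2 Hem1 KO arrays and 0 of 2 WT arrays, and S100a8, at or below background on all arrays. The lymphocyte markers were Cd79a (-0.36) and Cd3e, of which Cd3e was at or below background on all arrays.

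The genes whose profile over the 4 arrays was nearest to that of Lox, by root mean square difference of mean-centred log2 values, were the glutamate receptor gene Gria3 (0.017), the complement protease gene Masp1 (0.0432) and the membrane glycoprotein gene Gpm6b (0.0941). Masp1 read 9.90 and 8.94 on the Hem1 KO arrays and 7.10 and 6.13 on the WT arrays. Gria3 and Gpm6b did not exceed background on either WT array and were at least 4.62-fold and 4.31-fold higher in Hem1 KO macrophages (adjusted p = 0.00275 and 0.00369 by limma). Both genes lay below the negative-control level on both Hem1 KO arrays too, so that no bound holds at that level. The call of Gpm6b ended with dim genes dropped (0.0507), and its difference of 2.79 was 3.41 and 2.16 without WT replicates 1 and 2.

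RefSeq promoter sequences (GRCm38.p6, 250 bases before to 50 after the gene start) were at hand for 5 of the 10 genes: Serpinh1, Pcolce, P4ha2, Plod1 and Loxl4. Those of Serpinh1 and Pcolce, which were called higher together, are shown with those of P4ha2, which missed the threshold, and Plod1, whose genotypes overlapped. Each was searched on both strands for ACGTG (the core of the hypoxia response element), GGAATG (bound by TEAD factors), CAGAC (the core bound by SMAD proteins) and the CArG box bound by SRF. Sequences run 5′ to 3′ on the strand of the gene, capitals mark matches on either strand, and no matches overlapped.
Serpinh1, chr7:99353190-99353489, minus strand: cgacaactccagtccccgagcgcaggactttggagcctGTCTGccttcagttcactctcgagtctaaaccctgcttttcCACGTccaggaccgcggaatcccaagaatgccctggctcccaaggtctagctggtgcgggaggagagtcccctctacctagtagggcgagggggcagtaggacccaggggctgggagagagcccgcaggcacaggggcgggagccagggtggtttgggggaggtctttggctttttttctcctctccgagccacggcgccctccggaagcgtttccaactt
Pcolce, chr5:137611355-137611654, minus strand: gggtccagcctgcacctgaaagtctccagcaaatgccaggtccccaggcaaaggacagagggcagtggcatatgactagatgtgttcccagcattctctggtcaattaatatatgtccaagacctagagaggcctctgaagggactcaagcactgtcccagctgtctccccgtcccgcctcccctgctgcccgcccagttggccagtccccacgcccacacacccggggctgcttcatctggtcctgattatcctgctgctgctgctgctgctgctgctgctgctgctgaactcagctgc
P4ha2, chr11:54100674-54100973, plus strand: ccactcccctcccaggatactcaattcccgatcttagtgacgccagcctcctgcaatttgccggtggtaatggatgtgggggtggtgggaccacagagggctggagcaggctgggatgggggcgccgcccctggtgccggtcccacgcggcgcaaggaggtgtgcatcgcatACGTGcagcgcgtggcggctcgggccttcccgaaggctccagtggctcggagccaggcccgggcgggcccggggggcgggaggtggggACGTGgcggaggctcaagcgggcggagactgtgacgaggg
Plod1, chr4:147936727-147937026, minus strand: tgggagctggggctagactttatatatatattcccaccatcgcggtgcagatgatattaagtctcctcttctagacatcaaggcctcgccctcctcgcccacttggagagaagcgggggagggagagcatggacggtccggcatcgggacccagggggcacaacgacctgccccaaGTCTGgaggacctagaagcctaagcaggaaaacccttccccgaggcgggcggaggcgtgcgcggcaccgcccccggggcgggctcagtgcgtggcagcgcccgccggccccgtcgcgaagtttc

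ACGTG stood in the P4ha2 promoter at 2 positions, starting at -78 and 11 relative to the gene start, and in that of Serpinh1 at -171 on the opposite strand. It is present in 19.6% of 32851 RefSeq promoters of this length. CAGAC, present in 49.6% of them, was found once each in Serpinh1, Plod1 and Loxl4. GGAATG and the CArG box, present in 14.7% and 1.63%, were not found in these 5 windows, and the Pcolce window held none of the 4 motifs. Of the 2 called genes searched, Serpinh1 held matches and Pcolce held none, while P4ha2, Plod1 and Loxl4, which were not called, each held at least 1.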

How the data were processed

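Deposited log2 values of 4 arrays were used as they stand. The submitters' processing notes name RMA, which usually comprises background correction, quantile normalization and probe summary. They give no version or settings, and the log2 scale was read from the values. The array medians differ, so a quantile step across these arrays was not visible. Of 29129 table entries, the platform annotation gives 1 gene for 19572, several for 0 and none for 9557. The brightest probe set was kept for 55 genes with several, leaving 19505 genes.

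Genotype was the only term in limma 3.58.1 (R 4.3.3, lmFit and eBayes, 11.2 prior degrees of freedom, two-sided), with Benjamini-Hochberg adjustment over all genes. The script was tested on simulated data. With 2 arrays against 2, the smallest exact two-sided permutation p is 0.333. A gene at or below background on both arrays of 1 genotype has only a bound, in which its value on each of those arrays is raised to background where it is lower. The members and lists were chosen with earlier results of these data known, so no test over a list is given. Named are the members, Nckap1l, per list up to 6 called genes by size (otherwise the 2 with the smallest p) and the 3 genes nearest to Lox. Some others were added after the values were seen, as limits of a list or partners in a ratio. The number of arrays limits the precision. Alternatives left out each array, added the replicate number as a block, applied median centring or quantile normalization, dropped dim genes, let the prior follow intensity, averaged probe sets or changed the background level.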

Additional observations from a re-analysis of the deposited data

How the results depend on the processing

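The 5 calls (Lox, Loxl1, Plod2, Serpinh1 and Pcolce) held under all 10 alternatives, with adjusted p-values of at most 0.0405 by limma. Between 5 and 6 members were called higher with single arrays left out, and 0 lower. The members' median of 2.08 ran from 1.83 to 2.33 in those fits. With the replicate number as a block (replicate numbers are not known to pair mice; deviations of same-numbered arrays correlated at 0.24 across genes), 7 members were called higher, Loxl3 (adjusted p = 0.0248 by limma) and P4ha2 (0.00131) being added, with 620 genes higher and 199 lower over all genes, against 288 and 26 without the block.

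Over all genes, the count called higher ran from 185 without WT replicate 2 to 545 without Hem1 KO replicate 2, and the count lower from 26 to 101, the highest without Hem1 KO replicate 1. Centring gave 70 lower, quantile normalization 16 and the intensity trend 205. Keeping genes above background on at least 2 arrays gave 174 higher and 8 lower. Differences that changed sign with single arrays left out ran from -0.20 to 0.52 for Loxl4, -0.038 to 0.81 for Plod1, -0.35 to 0.96 for Cd3e, -0.28 to 0.48 for Gp9 and -0.46 to 0.86 for Itga2b. The causes were not tested.

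Background set by the 95th percentile of 5222 negative controls was 8.04 to 8.94, and then 8 members lay above it on both Hem1 KO arrays and 2 on both WT arrays. The 5 called genes were not among these 2, so their folds would then be bounds, from at least 1.27-fold for Serpinh1 to at least 4.47-fold for Plod2 (computed after seeing the data). With the 99th percentile of the receptor genes, 8 did in each genotype. Outside the members, the called genes Fkbp14 and Col3a1 lay below the negative-control level on all 4 arrays. Pcolce2 lay below it on Hem1 KO replicate 1 and on both WT arrays.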
